A study of Homo sapiens with 8 samples.

Results

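The features described here are the tRNA-length features of chromosome 6: entries of the deposited count tables that carry a number in place of a symbol, lie on chromosome 6 and are 68 to 79 nt long. There were 138 of them among 2709 features in all, and 533 features on all chromosomes had a number and such a length. Small RNA was sequenced from MEC-1, an established B-cell line from chronic lymphocytic leukaemia, and from exosomes, the small vesicles that these cells release into their medium. The exosome group had 5 libraries and the cell group had 3, all from the same line with no treatment named in the labels, so every difference below is between vesicle RNA and whole-cell RNA of a single leukaemia line. The cells were grown in bioreactors, and vesicles were pelleted by ultracentrifugation and purified on an iodixanol cushion. According to the protocols in the labels, the medium in the upper part of the bioreactor contained serum that still held its own exosomes. The series' design text says that 3 exosome samples have a paired cell sample but does not say which, so the tests below treat the libraries as unpaired. No label says which libraries came from separate cultures, and a p-value here reflects library-to-library spread alone, which may be technical.

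Transfer RNAs carry amino acids to the ribosome, and each of them is encoded by several gene copies that RNA polymerase III transcribes. The short arm of human chromosome 6 holds the largest cluster of these genes, close to the histone genes. Cells also cut tRNAs into shorter fragments, and such fragments are a well-known part of the RNA found in extracellular vesicles. A read count over a tRNA gene does not tell a whole tRNA from a fragment, and copies with the same mature sequence cannot be told apart by the reads they share. Reads of a tRNA gene with several copies can therefore be counted at any or all of them, and the setting for such reads is not given in the sources used here.

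The 138 members were 69 to 76 nt long, so their CPM (counts scaled to library size, per 1000000 reads) compare almost as values per length. There were 48 members of 72 nt, 57 of 73 nt and 27 of 74 nt, with 3 of 71 nt and 1 each of 69, 75 and 76 nt. In GRCh37, the build of the files, 122 members lay between 26 and 29 Mb and 16 lay elsewhere on the chromosome. With gaps under 200 kb as the joining rule, that stretch split into runs of 10 members (26286754 to 26331743), 26 members (26533145 to 26796078), 45 members (27059521 to 27870756) and 41 members (28442329 to 28950047). A further run of 8 members lay at 58141877 to 58196695. The plus strand carried 61 members and the minus strand 77. The numbers are not NCBI gene IDs: 43 of them equal a RefSeq gene ID, but 0 of those genes is a tRNA. The members are therefore named by number and GRCh37 position, and their amino acids and sequences were not used here. For orientation, RefSeq on the newer build GRCh38.p14 lists 155 tRNA genes on chromosome 6, of which 119 are 68 to 79 nt long. Its 72-nt genes there include 16 for alanine, 11 for glutamine and 6 for the initiator methionine tRNA that starts translation. Its 74-nt genes are 12 for isoleucine, 9 for threonine and 2 for phenylalanine. At the edges of the length rule, the 69-nt member 23760 had 32 to 252 reads per exosome library and 4 to 10 per cell library, and the 76-nt member 23731 had 0 to 8 and 0 to 1. No member was 77 to 79 nt long, and the nearest numbered features outside the rule were 82 nt long, such as 23847 with 2 to 20 reads per exosome library and 4 to 19 per cell library.

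Library totals ran from 23353820 to 32436286 reads in exosomes and from 25675636 to 57323598 reads in cells. Exosome 5 and cell 2 stood apart, with scaling factors of 0.524 and 0.552 where the other libraries had 0.905 to 1.46, so counts of calls are also given without them. The large ribosomal RNA features took 37.7% to 72.4% of exosome reads, most in exosome 5, and 24.6% to 30.7% of cell reads. Of the 5 lymphoid microRNAs chosen to check the cell type, 3 were measured here (MIR150, MIR181A1 and MIR21), with summed levels of 6354 to 18260 CPM in exosomes and 12970 to 27150 CPM in cells, and none passed the test. Nearly all of that sum was MIR21, which many cell types express (means of 11170 CPM in exosomes and 20180 CPM in cells). MIR181A1 had means of 358 and 287 CPM, and the lymphocyte microRNA MIR150 24.9 and 8.33 CPM. Of 9 microRNAs of other cell types, 8 were measured and none of these was at 0 in an exosome library. Their summed level was 113 to 271 CPM in exosomes and 59.0 to 90.9 CPM in cells. Of the 7 tested, 3 rose (MIR122, MIR143 and MIR126), with the liver microRNA MIR122 at a mean of 55.3 CPM against 1.26 CPM. The neural microRNA MIR9-1 went the other way, with means of 14.3 CPM in exosomes and 34.7 CPM in cells. It did not pass the test, and neither did MIR199A1, MIR223 and MIR486. The part of RNA from other sources in the results below was not tested.

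Reads on the chromosome 6 members took a larger share of exosome libraries than of cell libraries. Their summed share was 3.51%, 5.36%, 3.60%, 3.94% and 1.90% in exosomes 1 to 5, and 0.702%, 0.428% and 0.334% in cells 1 to 3. All exosome libraries lay above all cell libraries, including exosome 5, which had the lowest share of its group. The means were 3.66% ± 1.24 (SD, n = 5) and 0.488% ± 0.191 (SD, n = 3), a ratio of 7.51. As a share of a library, more of these RNAs per vesicle or cell and less of other RNA cannot be told apart. With the large ribosomal RNA features left out of the total, the means were 7.34% and 0.678%. The tRNA-length features of chromosome 1 took 11.9% of exosome reads and 1.24% of cell reads, a ratio of 9.61. Within the reads on all tRNA-length features, the chromosome 6 members made up 20.8% ± 3.04 (SD, n = 5) in exosomes and 22.2% ± 0.996 (SD, n = 3) in cells, and these groups overlapped. A large part of the reads on both chromosomes belongs to a set of 8 features with near-identical counts, described below. Of these, 2 are members and 6 lie on chromosome 1. The chromosome 1 values are thus not independent of those of the members, and the copy numbers of this set weigh on the 20.8% and 22.2%.

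**Figure D1:**
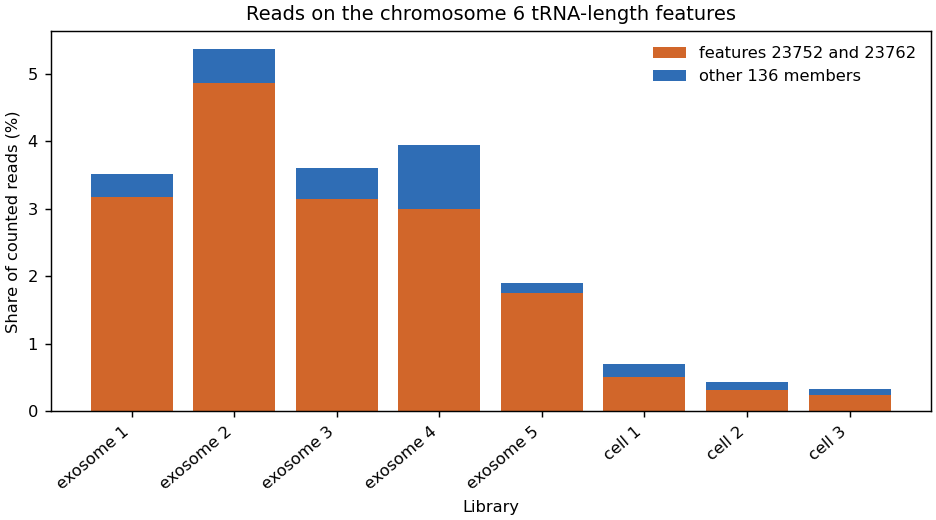
Share of all counted reads (%, vertical axis) on the 138 chromosome 6 members in each of the 8 libraries, split into features 23752 and 23762 (orange) and the other 136 members (blue). The exosome bars reach 1.90% to 5.36% and the cell bars 0.334% to 0.702%, and the pair makes up most of every bar.

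A pair of 72-nt features held most of these reads. Feature 23752 lies at chr6:28949976-28950047 on the plus strand, at the end of the 41-member run. Feature 23762 lies at chr6:126101393-126101464 on the minus strand, far from the cluster on the other arm. Feature 23752 had 13170, 22410, 11160, 10270 and 16740 CPM in exosomes 1 to 5, and 1769, 2804 and 1341 CPM in cells 1 to 3. The lowest exosome library was above the highest cell library, and the highest values of the groups were in exosome 2 and cell 2. Feature 23762 differed from it by a factor of at most 1.001 in any library. Its log2 fold change was 2.90 (SE 0.563), as was that of 23752, and both rose with an adjusted p of 0.000925 in edgeR's quasi-likelihood test over all features. The pair made up 76.0% to 92.5% of all member reads in exosomes, lowest in exosome 4, and 71.6% to 72.7% in cells. Without the pair, the members' share was 0.142% to 0.945% in exosomes and 0.0910% to 0.200% in cells, and the groups overlapped.

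Counts of 23752 and 23762 were also the same, within 2% or 5 reads in every library, as those of 6 features on chromosome 1. The reads of this set of 8 are thus not independent measurements, and the files do not show which of the 8 copies gave them. On its own, 23752 took 1.59% ± 0.553 (SD, n = 5) of the reads in exosomes, against 0.176% ± 0.0674 (SD, n = 3) in cells. When every group of such near-identical features was counted a single time, the members' summed share was 2.07% in exosomes and 0.310% in cells, and the groups still did not overlap.

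Below the pair, member levels were much lower. In the exosome group, 3 members had a mean of at least 1000 CPM, 10 at least 100 CPM and 32 at least 10 CPM. In the cell group the numbers were 2, 5 and 38. The 4 most abundant members took 90.6% to 95.7% of the member reads in each exosome library and 76.6% to 82.6% in each cell library. Next to the pair, 23827, 23708 and 23688 were the most abundant in exosomes, and 23803, 23708 and 23827 in cells. These orders are by the mean and do not hold beyond the spread: in exosomes 1, 3 and 5 feature 23708 was above 23827, 23803 or 23821 was above 23688 in 3 exosome libraries, and in cells the ranges of 23803, 23708 and 23827 overlapped.

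Among the next most abundant members, 23827 and 23708 rose and 23803 did not pass the test. The 73-nt feature 23827 (chr6:27248049-27248121, minus strand) had 475, 1288, 659, 2371 and 412 CPM in exosomes and 131, 77.5 and 138 CPM in cells. Every exosome value was above every cell value, but the exosome values spread widely, with exosomes 4 and 2 the highest. The log2 fold change of 23827 was 3.17 (SE 0.713, edgeR adjusted p = 0.00232). The 72-nt feature 23708 (chr6:27125906-27125977, plus strand) had 587, 1053, 906, 1567 and 733 CPM in exosomes and 87.4, 275 and 31.1 CPM in cells. Here the cell libraries were the more scattered group, with cell 2 the highest. The log2 fold change of 23708 was 2.88 (SE 0.722, edgeR adjusted p = 0.00436), and 3.87 without cell 2. The 71-nt feature 23803 (chr6:27870686-27870756, minus strand) had 204, 326, 229, 238 and 115 CPM in exosomes and 118, 148 and 226 CPM in cells. Its groups overlapped, and its log2 fold change of 0.44 (SE 0.519) had an edgeR adjusted p of 0.528.

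Each member was then tested in a fit over all features with enough reads. Of the 138 members, 98 could be tested, and 14 rose, 23 fell and 61 did not pass an adjusted p of 0.05 in exosomes against cells. Over all 1178 features tested, 20.7% rose and 22.3% fell (43% in either direction), and among the tested members 14.3% rose and 23.5% fell. The members' share of falls was thus close to that of all features, and their share of rises was below it. The median log2 fold change was 0.01 over the tested members and -0.09 over all features tested. Total-count scaling moved these medians to 0.40 and 0.19. Without exosome 5 and cell 2, 16 members rose and 20 fell. In 22 members every exosome library was above every cell library, where 21.6% of all tested features did so, and in 20 members every exosome library was below, where 20.1% did so. These numbers cover only the members that passed the filter on low counts. A member that passed it through reads in a single group was tilted towards a difference. Not every such member was called: 23828, 23832 and 23770 passed it through their exosome reads and were not.

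**Figure D2:**
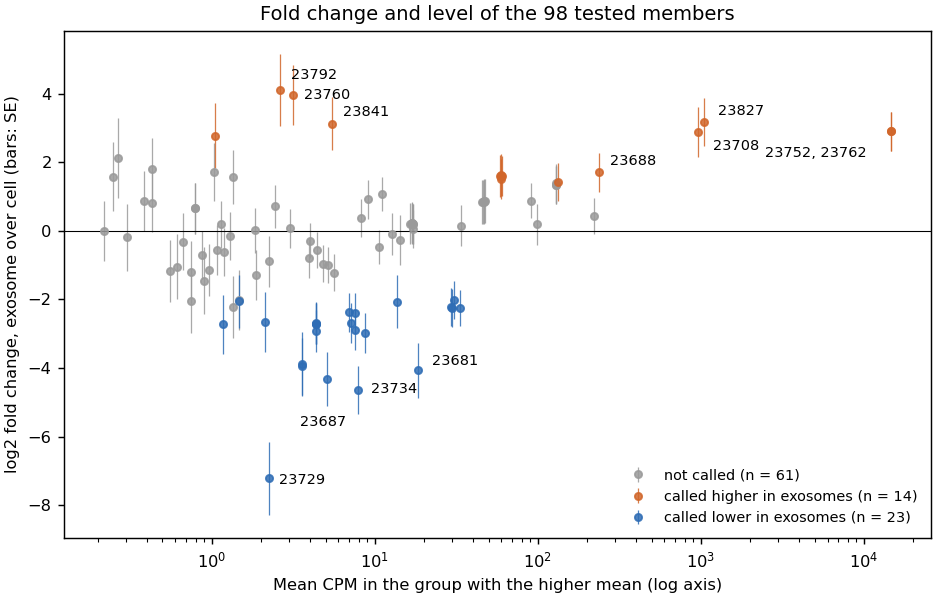
Log2 fold change of exosomes over cells (vertical axis, bars are SE) against the mean CPM of the group with the higher mean (horizontal log axis) for the 98 tested members: 14 higher (orange), 23 lower (blue), 61 not called (grey). The members that fell have means of at most 33.3 CPM, and the members above 100 CPM lie above 0.

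Other tRNA-length features were counted in the same fit. On chromosome 1, 37 of 68 tested features rose (54.4%) and 9 fell. On the remaining nuclear chromosomes, 58 of 159 rose (36.5%) and 31 fell. Of the 22 mitochondrial tRNAs, which serve translation inside mitochondria, 4 rose and 0 fell: MT-TQ, MT-TA, MT-TE and MT-TT, with log2 fold changes of 1.73, 2.10, 2.43 and 1.80. No test of the difference between these lists was made, so the numbers stand as a description.

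The other members that rose were of lower abundance. Among those with few reads, 23760, 23841 and 23792 had the largest changes. The 69-nt feature 23760 (chr6:163210014-163210082, minus strand), far from the cluster near the end of the long arm, had 2.76, 1.60, 0.701, 7.39 and 3.43 CPM in exosomes and 0.274, 0.133 and 0.193 CPM in cells. The groups did not overlap, and exosome 4 was the highest. Its log2 fold change was 3.96 (SE 0.881, edgeR adjusted p = 0.00221), and 4.56 without exosome 3. The 73-nt feature 23841 (chr6:26572092-26572164, minus strand) had 4.82, 4.25, 4.19, 11.0 and 3.15 CPM in exosomes and 0.988, 0.0998 and 0.771 CPM in cells. Cell 2, with 3 reads, was the lowest, and the log2 fold change was 3.13 (SE 0.777, edgeR adjusted p = 0.00419), or 2.53 without that library. The 72-nt feature 23792 (chr6:28663709-28663780, minus strand) had 3.71, 0.200, 0.767, 2.85 and 5.59 CPM in exosomes and 0.0823, 0.166 and 0.193 CPM in cells. Exosome 2, with 7 reads, was barely above cell 3. The log2 fold change of 23792 was 4.10 (SE 1.04, edgeR adjusted p = 0.00476), and 4.72 without cell 3. With limma-voom it did not pass (3.19, adjusted p = 0.0604). Both 23760 and 23792 had at most 10 reads in any cell library and passed the low-count filter of this fit through their exosome reads. Their tests are thus no independent support for a rise. The same holds for 23841, which had 3 reads in cell 2 and passed the filter through its exosome reads.

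The remaining 7 members that rose did so by less and did not keep the call in every run that left out a library. The 73-nt feature 23688 (chr6:26556774-26556846, plus strand) had 180, 415, 241, 236 and 118 CPM in exosomes and 98.6, 46.4 and 73.9 CPM in cells. The groups stood apart by a small margin between exosome 5 and cell 1. It rose by a log2 fold change of 1.71 (SE 0.575, edgeR adjusted p = 0.0248), and the call was lost without exosome 2 (1.43) or cell 2 (1.36). Within a looser bound of 5% or 10 reads, 23688 had the same counts as a feature on chromosome 1 and a feature on chromosome 5. The 71-nt feature 23757 (chr6:142578776-142578846, plus strand) had a mean of 1.05 CPM in exosomes and 0.152 CPM in cells, with exosome 4 at 2.90 CPM and the other exosome libraries at 0.460 to 0.913 CPM. Its log2 fold change of 2.78 (edgeR adjusted p = 0.0277) did not pass without exosome 4 (2.28), cell 1 (2.90), cell 2 (2.73) or cell 3 (2.87), or with limma-voom. With 5 to 7 reads per cell library, 23757 too passed the low-count filter through its exosome reads. The last 5, which are 72-nt features, belonged to sets with similar counts, taken up below.

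The members that fell were scarce in both kinds of library, with at most 33.3 CPM on average in cells. The most extreme were 74-nt features of the 45-member run. Feature 23734 (chr6:27655967-27656040, plus strand) had 0.307, 0.399, 0.482, 0.323 and 0 CPM in exosomes and 6.70, 9.38 and 7.79 CPM in cells. The cell libraries agree within a narrow range, and every exosome library was far below them. This corresponds to 57 reads in all exosome libraries and 930 in all cell libraries. Its log2 fold change was -4.64 (SE 0.697, edgeR adjusted p = 0.000174), and no left-out library moved it by over 1.5 times. Feature 23729 (chr6:27586135-27586208, plus strand) had 2 reads in exosomes, both in exosome 3, and 29, 110 and 117 reads in cells 1 to 3. Corrected for the totals, its cell-to-exosome ratio was 175, with an exact 95% interval of 47.9 to 1451 that covers counting error only. The fitted log2 fold change was -7.21 (SE 1.07, edgeR adjusted p = 0.000164), or -9.04 without exosome 3. With so few exosome reads the fitted value is no bound. Feature 23729 passed the low-count filter through its cell reads alone, so its p-value is no independent support for a fall.

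In some of the members that fell, the size of the change depended strongly on cell 2. The 73-nt feature 23681 (chr6:26328368-26328440, plus strand) had 0.859, 0.628, 1.34, 0.645 and 2.10 CPM in exosomes and 4.28, 48.2 and 2.87 CPM in cells. Cell 2 was far above the other cell libraries, although these too lay above every exosome library. The log2 fold change of 23681 was -4.07 (SE 0.804, edgeR adjusted p = 0.00103), and -1.86 without cell 2, still past the threshold. The 72-nt feature 23687 (chr6:26555498-26555569, plus strand), with 0.205 to 0.368 CPM in exosomes and 1.04, 12.5 and 1.79 CPM in cells, went from -4.31 to -2.54 without cell 2. The 73-nt feature 23746 (chr6:28715521-28715593, plus strand), with 0.114 to 0.430 CPM in exosomes and 0.549, 8.08 and 2.06 CPM in cells, went from -3.95 to -2.54. Both passed edgeR's test either way, with adjusted p values of 0.000619 and 0.00153 with all libraries and 0.0187 and 0.0353 without cell 2. Both also passed the low-count filter through their cell reads, so these p-values are no independent support for a fall. The 72-nt feature 23705 (chr6:27059521-27059592, plus strand) had 1.67, 36.5 and 2.91 CPM in cells against 1.56 to 5.73 CPM in exosomes. Its groups overlapped, and its log2 fold change of -2.06 (edgeR adjusted p = 0.0421) turned to 0.40 without cell 2. In the 73-nt feature 23728 (chr6:27543846-27543918, plus strand) it was cell 1 that lay apart, with 0.439, 5.92 and 4.41 CPM in cells against 0 to 0.645 CPM in exosomes. Its groups overlapped through cell 1, and its log2 fold change of -3.88 (edgeR adjusted p = 0.00362) was -4.48 without cell 1 and -3.28 without cell 3. Feature 23728 too passed the low-count filter through its cell reads.

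**Figure D3:**
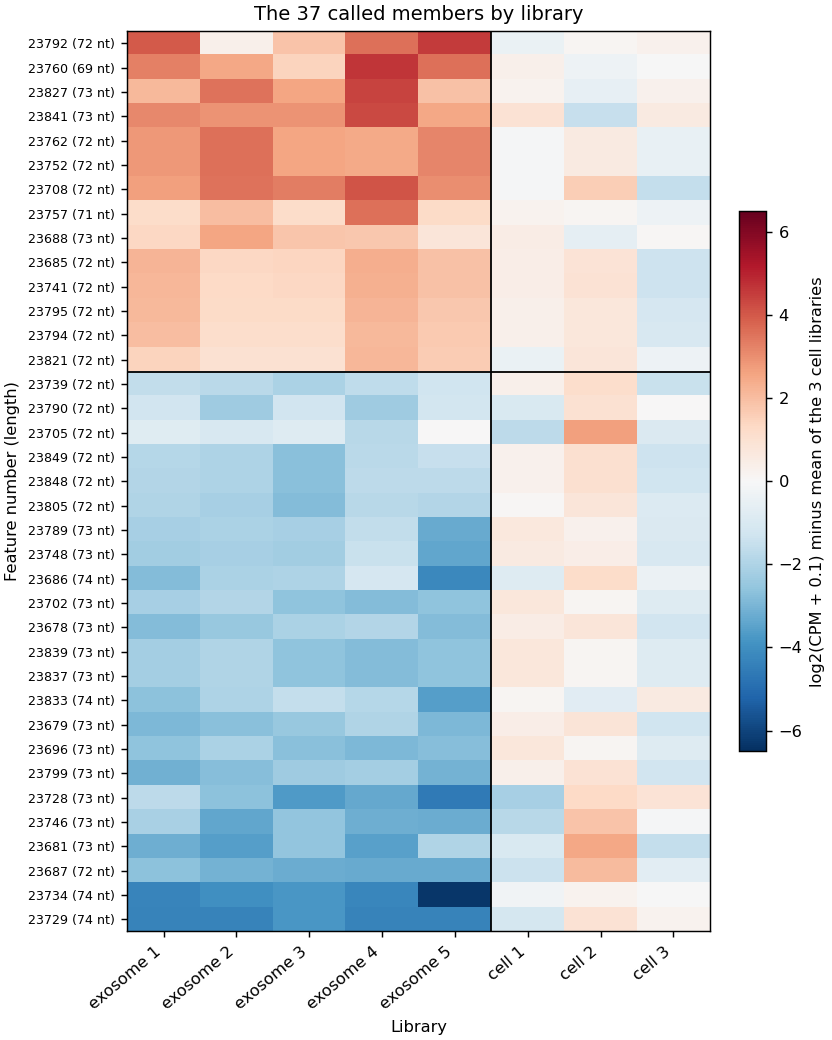
The 37 members that rose (above the horizontal line) or fell (below it), by feature and length in rows and by library in columns. Colour is log2(CPM + 0.1) minus the mean of the 3 cell libraries, so red is above and blue below the cell mean. The exosome columns are red or near 0 above the line and blue or near 0 below it, and among the cell columns cell 2 is darkest red in 23681, 23687 and 23705.

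A further set of members that fell varied less. The 73-nt features 23678, 23679 and 23799 (starts 26299905, 26323046 and 28510891) had 0.767 to 1.58 CPM in exosomes and 8.59 to 13.9 CPM in cells 1 and 2, and 2.47 to 3.05 CPM in cell 3. No exosome library reached the lowest cell library in any of them. Their log2 fold changes were -2.69, -2.89 and -2.98, with edgeR adjusted p values of 0.00102 to 0.00195. The 73-nt feature 23696 (chr6:26701712-26701784, plus strand) had 0.552, 0.856, 0.504, 0.440 and 0.489 CPM in exosomes and 6.59, 4.33 and 2.12 CPM in cells. It fell, with a log2 fold change of -2.92 (SE 0.607, edgeR adjusted p = 0.00141). In the same run, 23839, 23837 and 23702 (starts 26735574, 26758550 and 26766444) had near-identical counts, with 23839 at 0.767, 0.941, 0.570, 0.469 and 0.559 CPM in exosomes and 6.61, 4.33 and 2.14 CPM in cells. These 3 had log2 fold changes of -2.71 to -2.68 and are not independent of each other. The 73-nt features 23789 and 23748 fell by 2.38 and 2.40 on the same scale.

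By length, the rises and falls are given as a description, with no test of a difference between lengths. Of 45 tested members of 72 nt, 9 rose and 7 fell, and of 36 tested members of 73 nt, 3 rose and 12 fell. Over all features tested, 20.7% rose and 22.3% fell. Members with near-identical or similar counts are counted separately here, so these are not counts of independent changes. At 72 nt, the rises included the pair 23752 and 23762 and the 4 members of the set of 23685. The falls at 72 nt included the 4 members of the set of 23849. At 73 nt, the falls included 23839, 23837 and 23702 with 23696, whose counts were close to theirs, and also 23678, 23679 and 23799. Of 13 tested members of 74 nt, 0 rose and 4 fell: 23734, 23729, 23686 and 23833. The last of these lost the call without cell 3 (-2.10 in place of -2.73), and 23686 lost it without exosome 1, exosome 3, cell 2 (-1.79 in place of -2.65) or cell 3. At an unadjusted p under 0.05, 6 of the 13 members of 74 nt passed, as did 45 of all 98 tested members and 598 of all 1178 features. The summed reads of all 27 members of 74 nt were 0.000604%, 0.000548%, 0.000885%, 0.000916% and 0.000048% of exosome libraries 1 to 5. They were 0.00214%, 0.00162% and 0.00161% of cell libraries, above every exosome library. Exosome 5 had no read on 24 of the 27, while the other exosome libraries had none on 5 to 7 and the cell libraries none on 3 to 5. Its share of ribosomal RNA was also the highest of all libraries, and the part of that in the missing reads was not tested.

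By position, the counts are again a description with no test, to be read beside the 20.7% of all features that rose and the 22.3% that fell. The 10-member run at 26.3 Mb had 0 rises and 5 falls among 10 tested members. The 26-member run had 3 rises and 6 falls among 13. Of these falls, 3 (23839, 23837 and 23702) are a single near-identical group, and 23696 had counts close to theirs. The 45-member run had 3 rises and 6 falls among 36, and the 41-member run 5 rises and 6 falls among 33. Outside 26 to 29 Mb, 3 of 6 tested members rose (23760, 23757 and 23762) and 0 fell. Of the latter, 23762 has the counts of the chromosome 1 set. The 8-member run at 58 Mb had hardly any reads, and 1 of its members could be tested. On the plus strand 6 of 40 rose and 14 fell, and on the minus strand 8 of 58 rose and 9 fell.

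Many 72-nt members had counts close to those of others. Members of the same length whose counts lay within 40% in exosome libraries and 50% in cell libraries, or within 10 reads, formed 12 sets. The bounds were set after the values were seen, so the sets carry no test of their own, and the sets of 3 or more members are described. The set of 23685, 23741, 23795 and 23794, which lie at 26553731 and at 28611222 to 28641684, had median levels of 73.9, 40.4, 41.5, 81.5 and 59.9 CPM in exosomes and 22.0, 30.0 and 7.26 CPM in cells. In each exosome library the highest of the 4 was at most 1.043 times the lowest, but in cell 3 it was 1.424 times the lowest. All 4 rose, by 1.51 to 1.63 on the log2 scale with edgeR adjusted p values of 0.0372 to 0.0456. All 4 calls were lost without exosome 1, exosome 5, cell 1 or cell 3, and that of 23794 also without cell 2.

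The set of 23676, 23724, 23821 and 23774 had 127, 87.9, 90.3, 206 and 138 CPM in exosomes as median levels and 35.0, 80.6 and 36.2 CPM in cells. All exosome libraries were above all cell libraries, with exosome 2 and cell 2 the closest. Their log2 fold changes of 1.34 to 1.42 had edgeR adjusted p values of 0.0496 to 0.0635, so that 23821 passed and the other 3 did not, although their counts differed by at most 1.05 times in any library. The call of 23821 was lost without exosome 1, exosome 5, cell 1 or cell 3. Feature 23676 (chr6:18836402-18836473, plus strand), the only member below 26 Mb, had near-identical counts with a feature on chromosome 17.

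Other sets did not pass the test. Features 23677, 23846, 23844, 23825, 23817, 23736 and 23804, spread over 26286754 to 27870342, had median levels of 13.4, 19.0, 18.5, 17.8 and 16.4 CPM in exosomes and 12.1, 28.5 and 3.60 CPM in cells. Their exosome values were close to each other and lay inside the range of the cell values. Across the 7, the highest and the lowest count of an exosome library differed by at most 1.057 times, but in cell 3 by 1.822 times, where 23677 had 328 reads and 23736 had 180. Features 23742, 23743, 23745, 23777 and 23776, at 28678366 to 28831533, had median levels of 13.9, 85.9, 49.6, 61.8 and 23.4 CPM in exosomes and 35.5, 27.5 and 14.5 CPM in cells. Exosomes 1 and 5 were below cell 1 while exosome 2 was highest of all, and the log2 fold changes of 0.84 to 0.87 had edgeR adjusted p values of 0.287 to 0.308.

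The set of 23849, 23848, 23805 and 23739 fell. Its median levels were 7.07, 6.36, 3.88, 7.50 and 8.11 CPM in exosomes and 30.1, 50.8 and 9.69 CPM in cells. Cell 3 was close to the exosome libraries, and 23739 overlapped there, with 8.69 CPM in cell 3 against 9.79 CPM in exosome 5. The log2 fold changes were -2.26 to -2.01 (edgeR adjusted p = 0.00271 to 0.00838), and 23739 lost its call without exosome 3 (-1.53). Here the highest of the 4 was up to 1.601 times the lowest in exosomes and up to 1.876 times in cells.

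**Figure D4:**
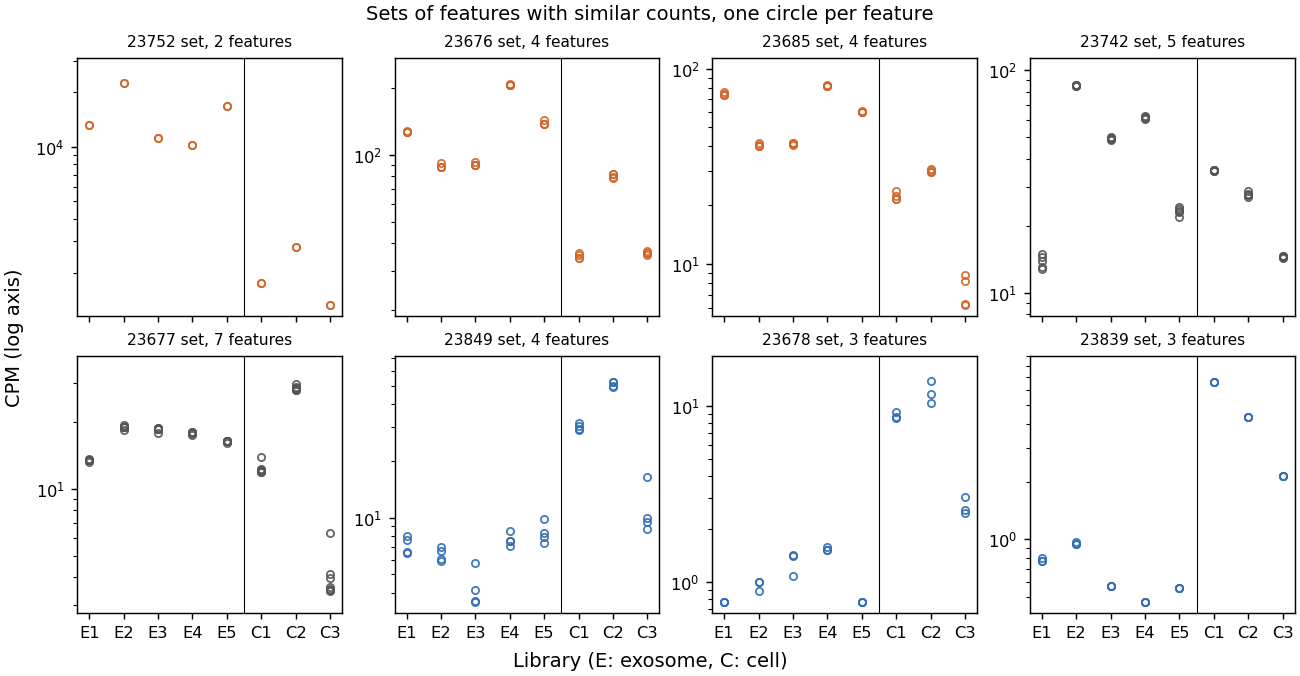
CPM (log axis, a separate range in each panel) of 8 sets of members with similar counts in exosome libraries E1 to E5 and cell libraries C1 to C3, with a circle for each feature; orange marks sets with members that rose, blue sets with members that fell and grey sets with neither. Circles overlie each other in most exosome libraries and separate most in C3 in the sets of 23685, 23677 and 23849.

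By a fixed bound of 2% or 5 reads in every library, 11 members fell into 6 near-identical groups. Besides those above, 23844 and 23825, and 23831 and 23711 formed pairs. Feature 23844 (chr6:26330529-26330600) had a log2 fold change of 0.23 and 23831 (chr6:27181623-27181695) of 0.66, and neither passed edgeR's test (adjusted p = 0.784 and 0.500). The 74-nt feature 23829 (chr6:27205350-27205423) had 0 to 13 reads per exosome library. Its counts lay within the bound of those of the 82-nt feature 23721, which had 1 to 10. At such low counts the bound of 5 reads is easily met, so shared reads are not shown. Its log2 fold change was -2.04 (edgeR adjusted p = 0.0932). With the bound of 5% or 10 reads, 31 members fell into 15 groups. Of 64 members with enough reads to look at, 21 fell into 8 groups on their exosome counts alone, 11 into 4 groups on their cell counts alone and 7 into 3 groups on all counts. The groups had 5 exosome libraries and 3 cell libraries, and a bound over more libraries is the stricter of these.

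A second fit asked how the members changed relative to other tRNA-length features. It held 348 tRNA-length features with their own scaling factors, 101 of them members. Of these members 8 rose and 39 fell, where 27.6% of the 348 rose and 32.5% fell (60.1% in either direction). The 8 that rose were 23752, 23762, 23827, 23708, 23841, 23792, 23760 and 23757, all of which also rose in the fit over all features. All 23 members that fell in that fit fell here too, along with 14 that had not passed there and 2 that had not been tested. The median log2 fold change was -0.55 over members and -0.16 over the 348 features. The direction depends on the scale: relative to the summed count of all tRNA-length features, 0 members rose and 86 fell, with medians of -2.66 over members and -2.36 over the 348. A large part of that sum is the counts of 23752 itself, repeated at the 8 features of its set. Its log2 fold change of 0.20 on that scale (edgeR adjusted p = 0.570) was thus held towards 0 by the scaling, and no conclusion is drawn from it.

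In the tRNA-length fit, the largest rises were 3.75 for 23792, 3.37 for 23760 and 2.53 each for 23752, 23762 and 23827. Values without a single library were 2.98 for 23792 (without exosome 5), 2.76 for 23760 and 1.85 for 23827 (both without exosome 4), all past the threshold. Feature 23708 went from 2.45 to 3.42 without cell 2, and 23757 (2.14) lost its call without exosome 4 (1.26) or cell 3 (1.86). The largest falls were -7.59 for 23729, -6.28 for 23791, -5.41 for 23720, -5.12 for 23734 and -4.67 for 23687. Feature 23791 (chr6:28694855-28694927, minus strand) had 4 reads in all exosome libraries and 4, 127 and 35 in cells 1 to 3. Its cell-to-exosome ratio was 56.7 (exact 95% interval 21.7 to 210.4, counting error only), and its fitted change was -4.42 without cell 2 and -7.44 without exosome 3. Feature 23720 (chr6:27447453-27447524, plus strand) had 4 exosome reads and 15, 56 and 19 reads in cells. Its ratio was 30.7 (11.6 to 115), and its fitted change was -4.41 without cell 2 and -6.56 without exosome 3. Features 23729, 23791, 23720, 23734 and 23687 all passed the low-count filter of this fit through their cell reads. Their tests here are thus no independent support for a fall. Other falls of this fit with few exosome reads, such as 23686 and 23833, share this limit. Feature 23729 went to -9.49 without exosome 3, and 23687 to -3.01 without cell 2.

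Of the 40 members that were not tested in the fit over all features, 21 were 73 nt and 14 were 74 nt long, and 30 lay between 26 and 29 Mb. None had more than 170 reads over all 8 libraries, and 22 had 10 reads or fewer. No read in any library fell on 6 members. In the 15 members with no cell read, the highest exosome total was 9 reads (23697), and in the 9 members with no exosome read the highest cell total was 2. Differences in the members with no cell read or no exosome read were not detectable at this depth. Of the 40, features 23791 and 23720 were called in the tRNA-length fit, as given above. Between 90 and 124 members had a read in an exosome library, the fewest in exosome 5, and 115 to 120 in a cell library.

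Of the 14 members that rose in the fit over all features, 7 were called in every run that left out a single library: 23752, 23762, 23827, 23708, 23841, 23760 and 23792. For 23760, 23792 and 23841, which passed the low-count filter through their exosome reads, this is no independent support. Of the 23 that fell, 18 were called in every such run. Among these 18, features 23729, 23687, 23746 and 23728 passed the filter through their cell reads, so this is no independent support for their falls. The 5 others were 23686, 23833 and 23705, described above, 23739, and 23790, whose log2 fold change of -2.06 (edgeR adjusted p = 0.0379) lost its call in 6 of those runs and was -1.46 without cell 2. With total-count scaling, 6 of the 14 rises did not pass (23685, 23741, 23795, 23794, 23688 and 23821), nor did these same 5 falls.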

How the data were processed

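The deposited tables hold raw counts of reads for each feature, with GRCh37 coordinates, in the featureCounts layout per the file headers. The submitters' processing notes list the tools cutadapt 1.1, STAR, featureCounts and DESeq2 1.8.2, with GRCh37 (hg19, hs37d5) as the build. How reads with several matches were counted is not given in the sources used here.

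All 8 libraries were fitted in R 4.3.3 with the quasi-likelihood test of edgeR 4.0.16, TMM factors and filterByExpr defaults (minimum count 10), and p-values were adjusted by Benjamini-Hochberg over every feature fitted. A call is an adjusted p under 0.05. SE is the log2 fold change divided by the root of F. CPM are counts per 1000000 reads of the TMM-scaled library. The second fit used numbered features of 68 to 79 nt on any chromosome. Alternatives used DESeq2 1.42.0 and limma 3.58.1. Scripts were tested on simulated data. Near-identical groups needed at least 100 reads in all.

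Named members were, in each direction, the 10 called with the largest fold change (100 or more counts on average in the higher group, libraries apart), the 5 most abundant per group, the first of each near-identical group and the 5 largest calls each way in the second fit; others named were chosen after their values were seen. The members and lists were chosen with earlier results of these data known. RPPH1, RMRP, MIR155, MIR142 and MIR451A were not analysed here. No molecular identifiers are named in the labels' protocols, so intervals cover counting error only.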

Additional observations from a re-analysis of the deposited data

Results flagged for a closer look

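In 35 groups of 5 exosome libraries that were looked at, 4 had a highest or lowest library far from the others. A rate of about 1 in 20 by chance holds for independent groups of normally distributed values. The groups here included near-identical features and counts near 0, so the 4 cannot be set against that rate. Feature 23841 had 11.0 CPM in exosome 4, with the next exosome library at 4.82 CPM. Feature 23696 had 0.856 CPM in exosome 2, with the next at 0.552 CPM. Feature 23729 had 0.0438 CPM in exosome 3, from 2 reads, and 0 in the other exosome libraries. The chromosome 6 members made up 15.4% of the reads on all tRNA-length features in exosome 4, and the next lowest exosome library had 21.4%.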

How the results depend on the processing

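The number of members that rose was 14 with all libraries and 8 to 17 when a library was left out (9 without exosome 1, 9 without exosome 5, 8 without cell 1 and 9 without cell 3). It was 8 with total-count scaling. The number that fell was 23, with a range of 18 to 26 when a library was left out, and 15 where at least 50 counts in 3 libraries were required, a filter that tests fewer members and gave 19 rises. The median log2 fold change of members ranged from -0.08 to 0.47 when a library was left out. In the tRNA-length fit, 8 members rose and 39 fell, with 7 to 15 rises (15 without cell 2) and 33 to 41 falls when a library was left out, and 0 rises and 86 falls when scaled by the summed count. The exosome mean of the summed share was 3.66%, and 2.07% with near-identical features each counted a single time, 2% with the looser bound, 7.34% without the ribosomal RNA features in the total and 2.07% without the most abundant member; leaving out a library gave 3.24% to 4.11%. The cell mean was 0.488%, 0.286% with the looser bound and 0.381% to 0.565% when a library was left out. Of the values of the 30 members named by the rule under the alternatives, 614 kept their direction and their side of the threshold, 38 no longer passed, 12 newly passed and 0 reversed. Outside those 30, 23705 changed sign in the fit over all features without cell 2 (0.40) and without exosome 5 and cell 2 together (0.20), and in the tRNA-length fit without cell 2 (0.12), and 23757 went from 2.14 to just under 0 in the tRNA-length fit scaled by the summed count. Dropping exosome 5 and cell 2 together, and the looser bound within the fits, were chosen after seeing the data. Where a cause is not given above, the cause was not tested.

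The design text states 3 pairs without naming them, and the replicate numbers could not be taken as those pairs: the deviations of same-numbered exosome and cell libraries correlated at 0.0381, -0.034 and 0.132 over 1178 features, not over 0.1 in every pair. Of exosomes 1 to 3, exosomes 1 and 3 correlated best with their own number and exosome 2 with cell 3 (0.116), and the highest value of all was between exosome 4 and cell 1 (0.236). With the number as a block, 6 members rose and 17 fell, and 7 rose and 29 fell in the tRNA-length fit. In the fit over all features the block also left 23792 (adjusted p = 0.0816), 23746 (0.0547) and 23728 (0.0575) without a call, among others. Depth limits the 40 untested members, which had at most 170 reads in all.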

Other observations

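Numbered features on chromosome 6 outside the length rule gave further values. The 94-nt features 23704, 23730 and 23738 had 44 to 365 reads in every exosome library. In cells, 23704 had 6, 1 and 3 reads and 23738 had 8, 5 and 5 reads in libraries 1 to 3, while 23730 had 33, 3 and 42. The 106-nt feature 23775 went the other way in counts, with 192 to 838 reads in exosome libraries and 890 to 2044 in cell libraries, whose totals were larger. These features were chosen after their values were seen, and no test was made.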
